A study of Mus musculus with 20 samples.

Results

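The 41 genes described here are imprinted genes, named from a fixed list of mouse symbols and found in every RNA-seq count table of the series, which holds 43280 gene rows in all. At E13.5, GFP+ mesenchymal cells were sorted from the intestine and stomach of Bapx1-cre;Rosa26mTmG embryos (control) and of Eedfl/fl;Bapx1-cre;Rosa26mTmG embryos (Eed KO), with 2 RNA-seq libraries in each of the 4 groups. In the adult, GFP+ cells of the small-intestinal mesenchyme were sorted from mice at about 10 weeks, 2 days after 5 days of tamoxifen, with 2 libraries labelled WT (called adult control here) and 2 labelled EED-KO. By the methods of the study, the adult controls carried Pdgfrβ Cre-ERT2 and Rosa26mTmG, and the adult Eed KO mice carried Eed fl/fl in addition. Every group therefore carried a Cre driver and the mTmG reporter, which turns cells and their descendants green once Cre has acted. The Bapx1 driver marks gut mesenchyme from early organ formation, whereas the inducible Pdgfrβ driver marks the adult cells that express it at the time of tamoxifen, so the embryonic and adult populations were gated by different drivers. ATAC-seq peak lists, each pooled over 2 libraries, covered the 4 embryonic groups.

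Imprinted genes are transcribed mainly or only from the copy inherited from 1 parent, because DNA methylation laid down in the egg or sperm marks a control region in each cluster. Many act on growth. Igf2, a fetal growth factor expressed from the paternal copy, is cleared by the maternally expressed receptor Igf2r, and the maternally expressed Grb10, Phlda2 and H19 restrain growth. Eed is a core subunit of Polycomb repressive complex 2 (PRC2), which places the H3K27me3 mark. In the mouse, this mark rather than DNA methylation is known to set the imprint of a few genes, among them Sfmbt2, and long non-coding RNAs such as Airn and Kcnq1ot1 recruit Polycomb complexes to neighbouring genes in the placenta. The counts were not separated by parental copy, so all values below are total expression, and a change of imprint cannot be seen in them.

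To show the kind of sequence at these genes, the 250 bases upstream of the RefSeq start (GRCm38.p6) are given for 6 members whose RNA rose after Eed loss in an embryonic organ. Capitals mark CpG dinucleotides, the sites of DNA methylation.
Dio3 promoter, chr12:110278980-110279229, plus strand: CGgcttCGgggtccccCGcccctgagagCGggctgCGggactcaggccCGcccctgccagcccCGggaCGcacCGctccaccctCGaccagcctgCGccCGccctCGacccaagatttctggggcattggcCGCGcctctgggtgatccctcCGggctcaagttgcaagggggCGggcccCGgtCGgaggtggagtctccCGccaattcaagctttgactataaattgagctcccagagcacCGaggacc
Rasgrf1 promoter, chr9:89909525-89909774, plus strand: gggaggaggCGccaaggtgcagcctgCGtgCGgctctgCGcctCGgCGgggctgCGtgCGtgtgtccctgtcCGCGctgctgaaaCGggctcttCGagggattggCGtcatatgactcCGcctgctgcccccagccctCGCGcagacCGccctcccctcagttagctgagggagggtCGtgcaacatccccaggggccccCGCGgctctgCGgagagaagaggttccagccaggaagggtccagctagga
Phlda2 promoter, chr7:143502525-143502774, minus strand: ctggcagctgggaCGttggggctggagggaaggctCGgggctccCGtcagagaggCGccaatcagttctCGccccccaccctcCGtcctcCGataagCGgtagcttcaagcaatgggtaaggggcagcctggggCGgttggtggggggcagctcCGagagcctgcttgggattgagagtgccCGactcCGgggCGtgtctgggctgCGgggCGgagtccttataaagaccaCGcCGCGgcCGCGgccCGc
Nap1l5 promoter, chr6:58907127-58907376, minus strand: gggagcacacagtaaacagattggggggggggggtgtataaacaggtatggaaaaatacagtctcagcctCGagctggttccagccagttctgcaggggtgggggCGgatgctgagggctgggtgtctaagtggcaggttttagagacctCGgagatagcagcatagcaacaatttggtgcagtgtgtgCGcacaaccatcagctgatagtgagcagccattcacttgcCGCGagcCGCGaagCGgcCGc
Dlk1 promoter, chr12:109452573-109452822, plus strand: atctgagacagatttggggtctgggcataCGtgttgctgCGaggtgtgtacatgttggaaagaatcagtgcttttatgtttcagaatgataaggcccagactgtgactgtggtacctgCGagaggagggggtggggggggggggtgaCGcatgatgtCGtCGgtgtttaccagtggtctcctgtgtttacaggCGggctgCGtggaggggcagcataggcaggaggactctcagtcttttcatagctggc
Airn promoter, chr17:12741061-12741310, plus strand: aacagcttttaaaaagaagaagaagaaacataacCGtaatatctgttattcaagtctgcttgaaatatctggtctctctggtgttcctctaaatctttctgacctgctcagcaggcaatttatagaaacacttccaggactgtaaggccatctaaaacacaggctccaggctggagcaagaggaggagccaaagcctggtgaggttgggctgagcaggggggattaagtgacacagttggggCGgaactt

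The windows of Dio3, Rasgrf1 and Phlda2 each held 21 CpG, a number reached by 16.3% of all promoter windows of this length. That of Nap1l5 held 10, that of Dlk1 held 8 and that of Airn held 2. Of the 41 members, 35 had entries in the promoter table, 56 windows in all, with a median of 10 CpG against 6 over all promoters. The hexamer TGCCGC, the core recognised by the imprint protector ZFP57, was searched on both strands. It occurred in 9 of the 56 member windows (16.1%), including that of Nap1l5, and in 8.68% of all promoter windows. By member, 8 of the 35 had a match. The hexamer itself holds a CpG, and the part of the higher CpG number in this difference was not tested. A match is a description of letters and not a bound site, and the table holds several overlapping windows for some members.

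Total gene counts ranged from 30236159 to 39606157 in the 8 embryonic libraries and from 11404712 to 15903642 in the 4 adult libraries. A count of 0 therefore allowed at most 0.0757 to 0.0992 CPM (counts divided by the TMM-adjusted library total, scaled to a common size) in the embryo and 0.189 to 0.263 CPM in the adult, for counting error only. Eed, the deleted gene, was at 38.1 and 40.1 CPM in control intestine, 10.7 and 8.59 CPM in Eed KO intestine, 40.1 and 41.5 CPM in control stomach, and 11.5 and 7.40 CPM in Eed KO stomach. In the adult, Eed stood at 29.7 and 33.4 CPM in the controls and at 25.7 and 25.0 CPM in the libraries labelled Eed KO, a log2 difference of -0.32 ± 0.21 (standard error) that did not pass the test (adjusted p = 0.32). The adult genotype was thus not separated by the RNA-seq count of its target, and every adult direction below refers to the libraries labelled Eed KO. The study reports the deletion efficiency of Eed in isolated pericryptal cells separately, and that measurement was not used here. Eed KO replicate 1 of both embryonic organs had Xist below 0.08 CPM and 250 to 275 CPM over 4 Y-linked genes, whereas Eed KO replicate 2 of both organs had Xist above 52 CPM and at most 0.0549 CPM over the Y-linked genes. The 4 embryonic control libraries had reads of both kinds. The sexes were thus mixed within each control library, whereas in Eed KO they were split between the replicates. Spike-in transcripts took 0.0720% to 0.110% of counts in the embryonic controls and 0.0134% to 0.0403% in the embryonic Eed KO libraries, and every fold change below is relative to the bulk of genes and not to the spike-ins. The 7 mesenchymal markers had counts in every library. Endothelial markers summed to 6.97 to 10.2 TPM (counts per base of gene length, scaled to a common total) in embryonic controls and to 12.8 to 25.5 TPM in Eed KO. The 5 leukocyte markers summed to 1.13 to 1.98 TPM in embryonic controls and to 2.21 to 4.15 TPM in embryonic Eed KO, higher in every Eed KO library than in every control. Of them Cd3e was at 0 in all 8 embryonic libraries and Ptprc in 6 of the 8, and the others had counts throughout.

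Imprinted genes made up 1.42% to 1.64% of all TPM in the 4 embryonic control libraries and 1.57% to 1.79% in the 4 Eed KO libraries. H19 and Igf2 alone gave 0.849% to 1.04% of the control total. H19, a non-coding RNA, averaged 7016 TPM over the 4 control embryonic libraries (range 6393 to 7454) and ranked 6th of all genes. Igf2 followed at 2599 TPM (range 2093 to 3104). The next members were Mest, a hydrolase-like protein of mesoderm, at 1090 TPM (range 895 to 1408), the growth factor receptor adaptor Grb10 at 891 TPM (range 875 to 908), and the proteolipid Nnat at 793 TPM (range 470 to 1014). Below these stood Dlk1, a membrane protein of the Notch ligand type, at 501 TPM (range 409 to 640), the G-protein subunit gene Gnas at 494 TPM (range 391 to 636), and the collagen-binding proteoglycan Dcn at 384 TPM (range 142 to 763). Ndn (323 TPM, range 282 to 345) and the zinc finger factor Plagl1 (315 TPM, range 260 to 357) completed the 10 highest. Among neighbours in this order, the ranges of H19 and Igf2 did not overlap, and neither did those of Igf2 and Mest, whereas all neighbours from Mest to Plagl1 overlapped. At the other end, 3 members averaged less than 1 TPM, namely Kcnq1ot1 (0.687 TPM), the placental factor Ascl2 (0.333 TPM) and the Ras exchange factor Rasgrf1 (0.0696 TPM). All 41 members passed the filter on low counts in the embryonic fit.

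**Figure D1:**
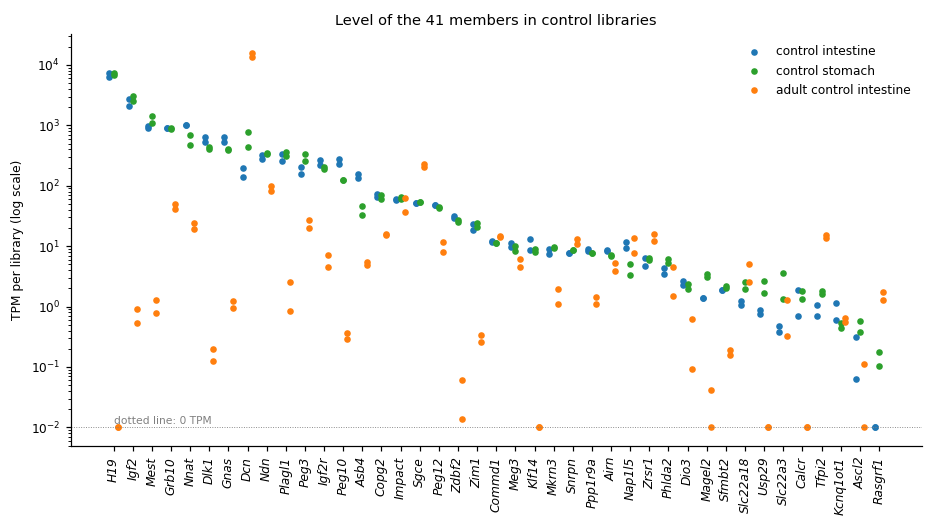
Level of each of the 41 imprinted genes in the control libraries, as TPM on a log axis, with 1 point per library and members ordered by their mean over the 4 embryonic controls. H19 leads at E13.5 with 6393 to 7454 TPM and is listed at 0 in both adult controls, while Dcn is the highest member in the adult.

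The comparison of control intestine with control stomach asked which genes differ between the organs before any deletion. The gene tests were edgeR quasi-likelihood F-tests on all 16218 genes, and "called" means a Benjamini-Hochberg adjusted p under 0.05. Of the 41 members, 8 were called, 5 higher in intestine and 3 higher in stomach, against 6.83% of all genes, 2.4% higher and 4.43% lower in intestine. The median log2 difference of the members was -0.0575 and that of all genes was near 0 (1.89e-05).

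Genes higher in intestine included a pair of neighbours on chromosome 6. Asb4, a substrate adaptor of a ubiquitin ligase (chr6:5383386-5433022), was at 205 and 175 CPM in control intestine and at 60.4 and 42.2 CPM in control stomach. Peg10, a retrotransposon-derived gene of the same cluster (chr6:4747306-4760517), was at 617 and 503 CPM in intestine and at 269 and 270 CPM in stomach. The intestinal libraries were all above the gastric ones, 3.71-fold for Asb4 (log2 1.89 ± 0.17, adjusted p = 0.00101) and 2.08-fold for Peg10 (log2 1.05 ± 0.12, adjusted p = 0.00196). These were also the members that stayed called when any 1 of the 4 libraries was left out.

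The nucleosome assembly gene Nap1l5 was at 7.45 and 5.82 CPM in intestine and at 2.09 and 3.14 CPM in stomach (log2 1.34 ± 0.23). Nnat was at 622 and 610 CPM in intestine and at 413 and 284 CPM in stomach (log2 0.82 ± 0.19). Gnas was at 2044 and 2338 CPM in intestine and at 1439 and 1516 CPM in stomach (log2 0.57 ± 0.12). The groups did not overlap for any of the 3 genes, as for 51.2% of all genes.

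In the other direction, Dcn was at 298 and 525 CPM in stomach and at 101 and 135 CPM in intestine, 3.50-fold lower (log2 -1.81 ± 0.29, adjusted p = 0.00997). The cation transporter Slc22a3 was at 4.14 and 1.56 CPM in stomach and at 0.56 and 0.44 CPM in intestine (log2 -2.49 ± 0.51). Rasgrf1 had 13 and 25 counts in control stomach and 0 in both intestinal controls, which places it at least 11.2-fold lower in intestine, with the bound taken at 3 counts over the group. The 2 replicates of Dcn and Slc22a3 in stomach lay far apart. With 1 library fewer the number of called members fell to 2 (without control intestine replicate 1), 4 (without control intestine replicate 2 or without control stomach replicate 1) or 5 (without control stomach replicate 2). Among markers, 3 of 5 endothelial and 1 of 5 smooth muscle genes were higher in intestine, and 1 of 6 epithelial, 1 of 2 skeletal muscle and 1 of 3 mesothelial genes were higher in stomach. Their part in these differences was not tested.

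Eed loss in the stomach raised 9 members and lowered none. Over all genes 7.91% were called, 5.96% as higher and 1.95% as lower. The median log2 change of the 41 members was 0.372, beside 0.000839 for all genes, and 27 of the 41 had a positive value.

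The smallest adjusted p was that of Klf14, a maternally expressed, single-exon zinc finger factor of the Mest cluster (chr6:30956023-30959078). It was at 9.13 and 8.11 CPM in control stomach and at 44.6 and 57.5 CPM in Eed KO stomach. Both deleted libraries were above both controls, 5.92-fold on the fitted scale (log2 2.57 ± 0.22, adjusted p = 0.000931). Asb4 was at 60.4 and 42.2 CPM in controls and at 164 and 153 CPM after deletion (log2 1.63 ± 0.17, adjusted p = 0.00229). Peg10 went from 269 and 270 CPM to 516 and 520 CPM (log2 0.94 ± 0.12, adjusted p = 0.00404). Both had lain lower in control stomach than in control intestine, and since the control stomach libraries enter both comparisons, these are not separate findings.

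On chromosome 12, the cluster that runs from Dlk1 through Meg3 to Dio3 was measured in all 3 listed members. Dio3, which inactivates thyroid hormone (chr12:110279068-110281097), was at 1.30 and 1.61 CPM in control stomach and at 4.24 and 5.70 CPM in Eed KO stomach (log2 1.77 ± 0.24, adjusted p = 0.00573). Dlk1 (chr12:109452823-109463336) was at 760 and 812 CPM in controls and at 1218 and 1483 CPM after deletion (log2 0.78 ± 0.14, adjusted p = 0.0176). The maternally expressed non-coding RNA Meg3 was at 60.7 and 50.3 CPM in controls and at 98.6 and 73.5 CPM after deletion, and did not pass (log2 0.63 ± 0.17, adjusted p = 0.068). Both deleted libraries lay above both controls for each of the 3, but 55% of all genes had groups that did not overlap in this comparison.

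4 further members passed in stomach. Rasgrf1 (chr9:89909908-90026977) had 13 and 25 counts in controls and 148 and 203 counts after deletion, or 0.38 and 0.64 CPM against 3.97 and 5.57 CPM (log2 3.21 ± 0.49, adjusted p = 0.0142). Sfmbt2, itself a Polycomb group protein (chr2:10370510-10595253), was at 6.58 and 6.14 CPM in controls and at 11.7 and 15.5 CPM after deletion (log2 1.10 ± 0.17, adjusted p = 0.0111). Nap1l5 went from 2.09 and 3.14 CPM to 5.42 and 5.29 CPM (log2 1.03 ± 0.23, adjusted p = 0.0342). Airn, the non-coding RNA antisense to Igf2r (chr17:12741311-12860122), went from 8.23 and 8.31 CPM to 14.1 and 15.7 CPM (log2 0.85 ± 0.13, adjusted p = 0.00995).

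The 32 members that did not pass in stomach ran from -0.70 (Slc22a3) to 0.98 (Phlda2) on the log2 scale. They included the most abundant members. H19 was at 5369 and 5733 CPM in controls and 4782 and 4890 CPM after deletion (log2 -0.20 ± 0.11, adjusted p = 0.34), and Igf2 was at 4728 and 5859 CPM against 4463 and 5729 CPM (log2 -0.05 ± 0.21, adjusted p = 0.90). Mest, Grb10, Nnat, Gnas, Dcn, Ndn and Plagl1 also did not pass. Of the 5 members of the Snrpn cluster none was called, and 4 of 5 had values below 0. Without control stomach replicate 1, control stomach replicate 2, Eed KO stomach replicate 1 or Eed KO stomach replicate 2 the count of called members was 4, 5, 8 and 4, and Klf14, Asb4, Peg10 and Dio3 were called in all 4 cases. With 1 spike-in factor of unwanted variation in the model, 2 members were called (Asb4 and Klf14). Cell type markers moved in the same contrast. In Eed KO stomach 3 of 5 endothelial markers and 1 of 2 tested skeletal muscle markers were higher, and 2 of 7 mesenchymal and 1 of 3 mesothelial markers were lower. The smooth muscle sum was 4590 to 4680 TPM in control stomach and 2930 to 3300 TPM in Eed KO stomach, with none of its 5 markers called by edgeR. The part of these markers in the changes of the members was not tested. The markers are bulk sums, in which fewer cells of a type and less RNA per cell cannot be told apart.

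**Figure D2:**
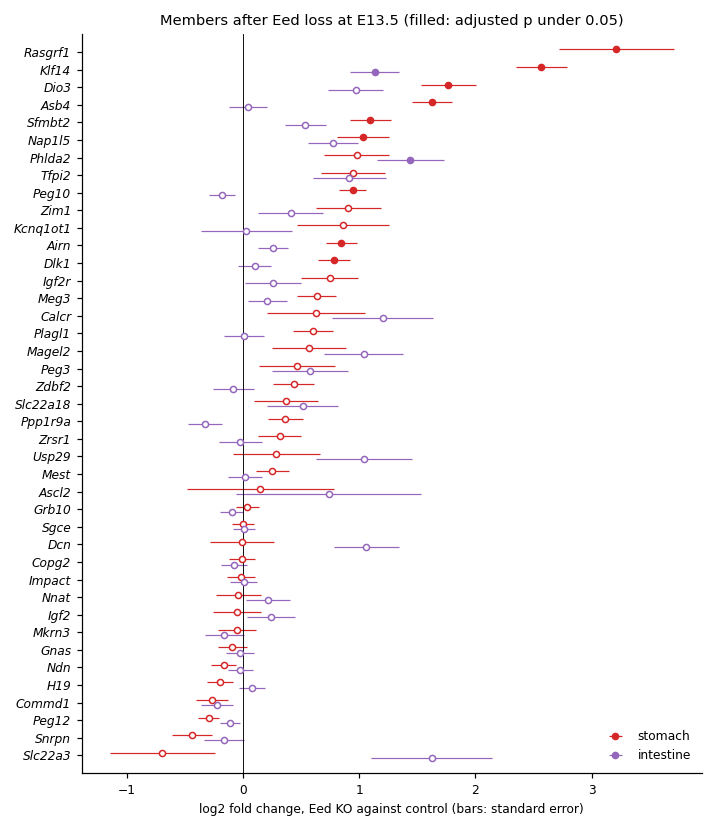
Log2 fold change of each member, Eed KO against control, in E13.5 stomach (red) and intestine (purple), with the standard error as bars and filled points for an adjusted p under 0.05. In stomach 9 points are filled, all to the right of 0, and in intestine 2 are filled, Klf14 and Phlda2. Rasgrf1 is not drawn for intestine, where the controls had 0 counts.

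In the intestine, Eed loss raised 2 of the 41 members and lowered none, beside 3.06% of all genes called, 2.66% as higher and 0.407% as lower. The median log2 change of the members was 0.209 and that of all genes 0.00581. Klf14 was at 8.79 and 13.02 CPM in control intestine and at 25.4 and 22.3 CPM in Eed KO intestine, 2.19-fold higher (log2 1.13 ± 0.21, adjusted p = 0.0351). Phlda2, a pleckstrin homology protein of the Kcnq1 cluster known for restraining placental growth (chr7:143501545-143502541), had 32 counts in each control and 111 and 85 after deletion, or 0.90 and 1.08 CPM against 2.93 and 2.42 CPM (log2 1.44 ± 0.29, adjusted p = 0.0452). The groups did not overlap for either gene, as for 38.3% of all genes.

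Several other members had positive values that did not pass. Dio3 was at 1.57 and 1.78 CPM in control intestine and at 3.19 and 3.37 CPM after deletion (log2 0.97 ± 0.24, adjusted p = 0.085). Dcn was at 101 and 135 CPM against 210 and 279 CPM (log2 1.06 ± 0.28, adjusted p = 0.11), and Nap1l5 at 7.45 and 5.82 CPM against 11.002 and 11.7 CPM (log2 0.77 ± 0.21, adjusted p = 0.12). Rasgrf1 had no counts in control intestine and 3 and 11 after deletion, at least 4.18-fold higher, and did not pass (adjusted p = 0.15). Asb4 (205 and 175 CPM against 192 and 199 CPM) and Peg10 (617 and 503 CPM against 473 and 512 CPM) overlapped between the groups. Neither Klf14 nor Phlda2 was called in any of the 4 fits that left out 1 intestinal library. The count was 0 without control intestine replicate 1, control intestine replicate 2 or Eed KO intestine replicate 2 and 1, a different member, without Eed KO intestine replicate 1. It was also 0 with the spike-in factor or with the 4 intestinal libraries fitted alone, but 5 with DESeq2 and 8 without the filter on low counts. Among markers, 1 of 5 endothelial and 1 of 6 epithelial genes were higher in Eed KO intestine, and their part was not tested.

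The difference between the organs in their response was tested directly as an interaction. By edgeR no member passed at an adjusted p under 0.05, 10 had an unadjusted p under 0.05, and DESeq2 called 3 (Peg10, Asb4 and Klf14). By edgeR 3 were called without the filter on low counts, 1 with the spike-in factor and 7 with a replicate block. The block takes same-numbered stomach and intestine libraries of a genotype as pairs, which the labels do not state. In the fit without these changes, 0.105% of all genes passed. At the looser limits that the study set for interactions, an adjusted p under 0.2 with a log2 difference above 1 in size, Asb4 and Peg10 were within the limits, beside 0.462% of all genes. For Asb4 the response in intestine minus that in stomach was -1.59 ± 0.24 (adjusted p = 0.073), and for Peg10 it was -1.13 ± 0.16 (adjusted p = 0.07). For Klf14 it was -1.44 ± 0.29 (adjusted p = 0.22).

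**Figure D3:**
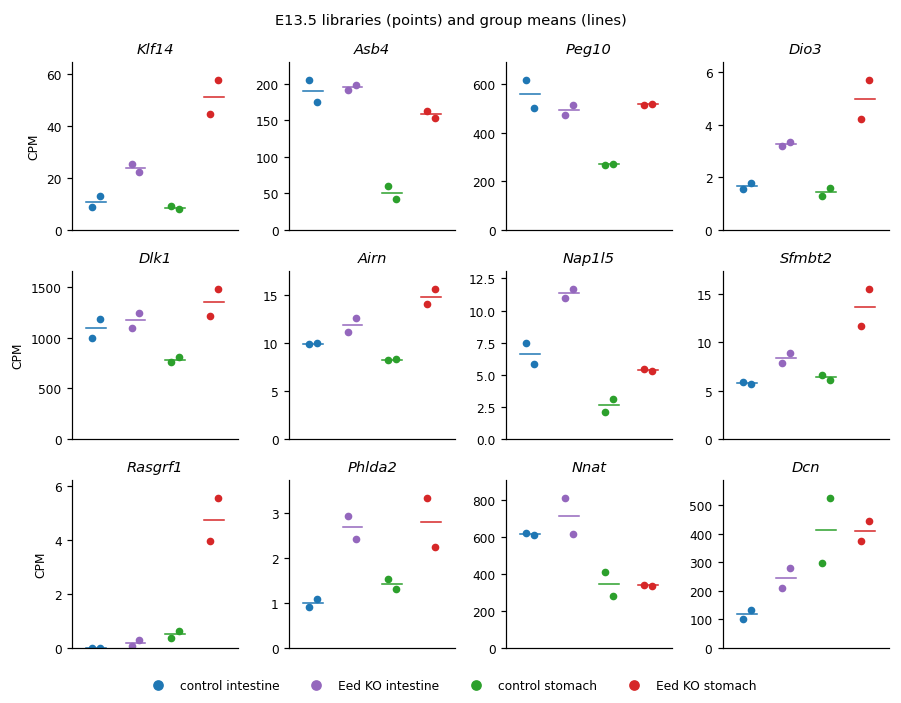
CPM of 12 members in the 8 embryonic libraries, with 1 panel per gene, points for libraries and lines for group means, and each axis starting at 0. Klf14 is highest in Eed KO stomach at 44.6 and 57.5 CPM, and Asb4 in Eed KO stomach (164 and 153 CPM) lies near the 175 to 205 CPM of control intestine.

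Without Eed, 8 members differed between intestine and stomach, 4 in each direction, against 6.33% of all genes, 2.32% higher and 4.01% lower in intestine. Nnat was at 810 and 616 CPM in Eed KO intestine and at 340 and 337 CPM in Eed KO stomach (log2 1.07 ± 0.19, adjusted p = 0.0191). Gnas was at 2056 and 2249 CPM against 1280 and 1489 CPM (log2 0.64 ± 0.12), Nap1l5 at 11.002 and 11.7 CPM against 5.42 and 5.29 CPM (log2 1.08 ± 0.22), and Peg12 of the Snrpn cluster at 40.2 and 39.5 CPM against 30.7 and 30.4 CPM (log2 0.38 ± 0.09). All 4 were higher in intestine.

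On the gastric side, Rasgrf1 had 3 and 11 counts in Eed KO intestine and 148 and 203 in Eed KO stomach (log2 -4.60 ± 0.56, adjusted p = 0.00699). It was the member called whichever library was left out. Klf14 was at 25.4 and 22.3 CPM against 44.6 and 57.5 CPM (log2 -1.10 ± 0.20), Mest at 1333 and 1153 CPM against 1890 and 1948 CPM (log2 -0.63 ± 0.14), and Plagl1 at 698 and 864 CPM against 1168 and 1419 CPM (log2 -0.73 ± 0.17). Asb4 and Peg10, called between the control organs, were not called between the deleted ones, where Asb4 was at 192 and 199 CPM against 164 and 153 CPM and Peg10 at 473 and 512 CPM against 516 and 520 CPM. The count of called members was 2 without Eed KO intestine replicate 1, 4 without Eed KO intestine replicate 2, 2 without Eed KO stomach replicate 1 and 1 without Eed KO stomach replicate 2. Under the additional requirement of a log2 difference above 1 in size it was 4, beside 4.4% of all genes. With same-numbered libraries taken as pairs (a replicate block), 17 members were called. Whether such libraries share embryos is not stated. Among markers, 4 of 5 smooth muscle and 1 of 7 mesenchymal genes were higher in Eed KO intestine, and 1 of 2 skeletal muscle and 1 of 3 mesothelial genes were higher in Eed KO stomach. Their part in these differences was not tested. Some members differed between the Eed KO replicates in the same order in both organs, such as Peg3 at 828 and 1564 CPM in intestine and at 1397 and 2190 CPM in stomach for replicates 1 and 2, which also differ in sex.

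Open chromatin at the transcription starts was listed for most members in every embryonic condition. A broad ATAC peak within 1000 bp of the annotated start was present for 34 members in control intestine, 36 in Eed KO intestine, 35 in control stomach and 37 in Eed KO stomach, beside 87.8% to 88.9% of 16216 tested genes. 34 members had a peak in all 4 lists, 4 had none in any list (Igf2, Usp29, Sfmbt2 and Tfpi2), and 3 had a peak in some lists (Mest, Snrpn and Slc22a18). Slc22a18 had a peak in Eed KO stomach alone, and Mest lacked one in control intestine alone, but the outermost annotated start was used and several of these genes have inner starts. The members that rose after Eed loss already had a peak in the controls, with the exception of Sfmbt2. At Klf14 the peak had a fold enrichment of 5.93 in control stomach and 7.12 in Eed KO stomach, and of 7.90 in control intestine and 5.83 in Eed KO intestine. At Dio3 it was 3.54 and 3.07 in stomach and 3.99 and 2.73 in intestine. At Asb4 it was 3.64 and 3.86 in stomach and 3.62 and 4.71 in intestine. At Rasgrf1 it was 5.15 and 4.30 in stomach and 4.70 and 4.58 in intestine, although RNA was at 0 counts in control intestine. Each list pools its libraries, so these enrichments have no replicate error, and no test was made. The promoter windows printed for Dio3, Rasgrf1, Airn and Phlda2 lay wholly inside the peak in all 4 lists. Between 96 and 140 of the 250 bases of the Nap1l5 window were inside, and the Dlk1 window was outside its peak.

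The adult control intestine was next set against the embryonic control intestine, in a fit over all 12 libraries and 19388 genes. Stage, driver, kit, depth and the mix of sexes all differ between these groups and cannot be told apart. Every adult library had at most 0.1004 CPM over the 4 Y-linked genes, against 91 and 143.2 CPM in the embryonic control intestine libraries. The strand setting of the embryonic counts is not given in the sources used here. Of the 41 members, 33 were called, 25 lower and 8 higher in the adult, and over all genes 72.8% were called, 35.9% lower and 36.9% higher. The median log2 difference of the members was -2.19, and that of all genes was 0.0248. Of the 9 members listed for their roles in growth, 8 were called and all 8 were lower in the adult. Only 30 of the 41 members, and 7 of these 9, passed the filter on low counts in the adult libraries alone. The others entered this fit through the embryonic libraries, where they had more counts, so their lower values add no support to these counts.

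Levels are given here in TPM, which can be set side by side across libraries only as a description. H19 went from 6393 and 7454 TPM in embryonic control intestine to 0 in both adult controls, at least 39778-fold lower in CPM with a floor of 3 counts over the group. Igf2 went from 2093 and 2685 TPM to 0.532 and 0.898 TPM (log2 -11.11 ± 0.37). Dlk1 went from 521 and 640 TPM to 0.202 and 0.125 TPM (log2 -11.21 ± 0.26). Mest went from 895 and 977 TPM to 0.774 and 1.31 TPM (log2 -9.22 ± 0.49), and Peg10 from 273 and 230 TPM to 0.371 and 0.292 TPM (log2 -8.99 ± 0.22). For each of these genes both adult controls lay below both embryonic ones, in a comparison where 72.8% of all genes were called. The share of all genes with groups that do not overlap was not computed here.

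Plagl1 went from 260 and 336 TPM to 2.53 and 0.838 TPM, Igf2r from 224 and 265 TPM to 7.02 and 4.56 TPM, and Nnat from 1002 and 1014 TPM to 23.9 and 19.4 TPM. Grb10 went from 893 and 889 TPM to 41.3 and 49.4 TPM, Peg3 from 158 and 203 TPM to 26.8 and 19.7 TPM, and Ndn from 282 and 328 TPM to 81.1 and 98.1 TPM. Grb10, Ndn, Peg3 and Nnat were thus lower but still above 19 TPM in both adult controls. Klf14, Calcr and Usp29 had 0 counts in both adult controls, at least 78.3-fold, 11.6-fold and 5.25-fold lower. Magel2 had 1 count in the adult controls and 141 in the embryonic ones, a ratio of 47.3 with a 95% counting interval of 8.35 to 1881. Also lower were Zdbf2, Gnas, Zim1, Asb4, Sfmbt2, Ppp1r9a, Dio3, Mkrn3, Peg12 and Copg2, with fitted log2 differences from -9.10 (Zdbf2) to -1.54 (Copg2).

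8 members were higher in the adult. Dcn, at 142 and 196 TPM in the embryo, reached 13681 and 15644 TPM (log2 7.02 ± 0.33) and ranked 4th of all genes. Sgce, a sarcoglycan of the Peg10 cluster transcribed from the same start region as Peg10, went from 52.1 and 51.4 TPM to 229 and 204 TPM (log2 2.64 ± 0.12), opposite to Peg10. The protease inhibitor Tfpi2 of the same cluster went from 0.708 and 1.06 TPM to 13.7 and 15.2 TPM (log2 4.60 ± 0.34). Rasgrf1 went from 0 counts to 76 and 108 counts, at least 183-fold higher. Slc22a18, Zrsr1, Snrpn and Commd1 rose by 0.86 (Commd1) to 2.29 (Slc22a18) on the log2 scale. The members that did not pass were Meg3, Airn, Impact, Kcnq1ot1, Phlda2, Slc22a3, Nap1l5 and Ascl2. As a share of all TPM the members gave 1.43% and 1.62% in the adult controls, but 0.0606% and 0.0547% without Dcn. The same shares without Dcn were 1.41% and 1.62% in the embryonic control intestine.

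Some members share exon bases with other genes. The adult counts were made without strand and reads in more than 1 gene were dropped. Other genes cover 22.0% of the exon bases of Gnas, 22.9% of Mest and 20.2% of Copg2, so their adult counts may be too low (Gnas had 55 and 77 counts in the adult controls and 72759 and 69460 in the embryo). Of the 28 members that share no exon base with another gene, 22 were called between the stages, 17 lower and 5 higher. Only 19 of these 28 passed the filter on low counts in the adult libraries alone.

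In the adult, 30 of the 41 members passed the filter on low counts, and 8 of them were called between the libraries labelled Eed KO and the controls, 7 lower and 1 higher. Over all genes 23.5% were called, 9.39% lower and 14.1% higher. The median log2 difference of the 30 members was -0.493 and that of all genes 0.00125.

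Meg3 was at 42.005 and 32.4 CPM in adult controls and at 7.73 and 10.1 CPM in the libraries labelled Eed KO, 4.15-fold lower (log2 -2.05 ± 0.27, adjusted p = 0.00252). Peg3, a zinc finger factor expressed from the paternal copy, was at 137 and 104 CPM against 40.3 and 14.2 CPM, 4.44-fold lower (log2 -2.15 ± 0.46, adjusted p = 0.0157). Grb10 was at 144 and 178 CPM against 67.5 and 67.1 CPM, 2.39-fold lower (log2 -1.26 ± 0.20, adjusted p = 0.00511). These members passed whichever of the 4 libraries was left out.

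Rasgrf1 was at 5.56 and 7.57 CPM in controls and 1.81 and 1.55 CPM in the libraries labelled Eed KO (log2 -1.97 ± 0.47), and Airn at 7.17 and 5.47 CPM against 2.41 and 1.78 CPM (log2 -1.60 ± 0.47). Ndn was at 51.5 and 64.1 CPM against 33.4 and 30.0 CPM (log2 -0.87 ± 0.21), and Sgce at 272 and 249 CPM against 147 and 145 CPM (log2 -0.83 ± 0.18). Impact, a regulator of translation under stress, was the member that was higher, at 83.0 and 49.6 CPM against 140 and 217 CPM (log2 1.43 ± 0.32, adjusted p = 0.0194). The groups of these called genes did not overlap, which was so for 65.3% of all genes and adds nothing to the calls.

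Among the members that did not pass, Dcn was at 10960 and 12894 CPM against 8064 and 8802 CPM (log2 -0.50 ± 0.20, adjusted p = 0.12). Dio3 had 1 and 7 counts in the controls and 0 in the libraries labelled Eed KO, at least 2.19-fold lower, and Zim1 had 5 and 7 counts against 0, at least 3.28-fold lower. Neither entered the test. Klf14, raised by Eed loss in both embryonic organs, had 0 counts in all 4 adult libraries. The count of called members was 3 without adult control intestine replicate 2, 4 without adult Eed KO intestine replicate 2, 6 without adult control intestine replicate 1, 9 without adult Eed KO intestine replicate 1, and 2 with the spike-in factor (Peg3 and Meg3). Cell type markers moved with this contrast. The 7 mesenchymal markers summed to 3620 to 3640 TPM in controls and to 741 to 1130 TPM in the libraries labelled Eed KO, with 4 of 7 lower. The leukocyte markers summed to 102 to 121 TPM in controls and to 1670 to 1740 TPM in the libraries labelled Eed KO, with 3 of 5 higher and 1 lower. Smooth muscle markers (3 of 5), enteric neural markers (2 of 4 tested) and endothelial markers (1 of 5) also included higher genes. The enteric neural sum was 0.772 to 1.08 TPM in controls and 7.08 to 10.02 TPM in the libraries labelled Eed KO. Pancreas markers summed to 649 TPM in 1 library labelled Eed KO and to 14.2 TPM in the other, beside 16.3 to 30.2 TPM in controls. The part of these markers in the differences of the imprinted genes was not tested.

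**Figure D4:**
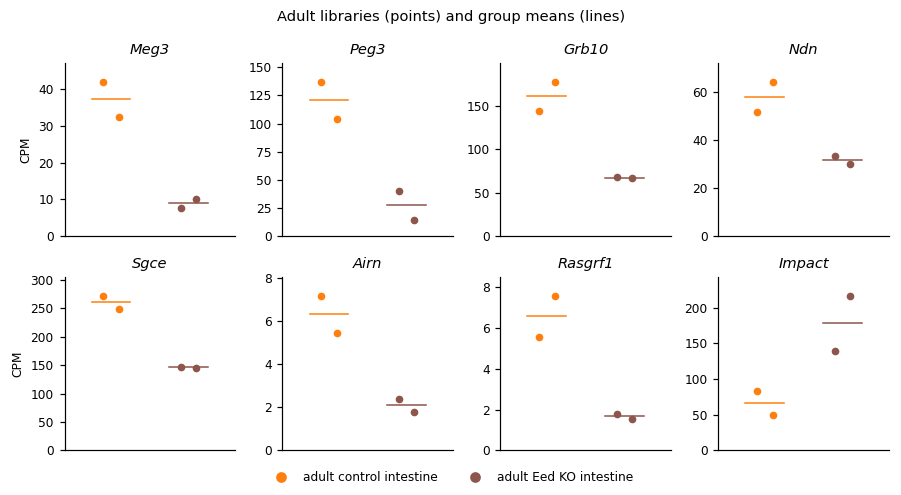
CPM of the 8 called members in the 4 adult libraries, with points for libraries, lines for group means and axes starting at 0. For 7 genes both libraries labelled Eed KO lie below both controls, as for Meg3 at 7.73 and 10.1 CPM against 42.005 and 32.4 CPM, and for Impact they lie above.

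The difference between libraries labelled Eed KO and controls was then compared between the stages as an interaction, the adult log2 difference minus that of the E13.5 intestine. Eed itself had an interaction of 1.69 ± 0.29 (adjusted p = 0.0038), since its level was lower in the embryonic Eed KO libraries and not called in the adult ones. Of the 41 members 15 passed, 13 with a lower value in the adult and 2 with a higher one, beside 16.7% of all genes (8.37% lower and 8.32% higher). Zim1, Dio3 and Dlk1 are among the 15, although their adult counts were too low for the adult test. They entered this fit through their embryonic counts, so their passing adds no support, and Dlk1 is among those with a higher value. Klf14, Calcr and Usp29 are among the 41, although they had 0 counts in every adult library. Meg3 differed by 0.21 ± 0.17 in the embryonic intestine and by -2.05 ± 0.27 in the adult. Peg3 differed by 0.58 ± 0.33 and by -2.15 ± 0.46, and Airn by 0.25 ± 0.13 and by -1.60 ± 0.47. Grb10 differed by -0.10 ± 0.10 and by -1.26 ± 0.20. Dcn differed by 1.06 ± 0.28 in the embryo and by -0.50 ± 0.20 in the adult, and Nap1l5 by 0.77 ± 0.21 and by -1.12 ± 0.45, although neither passed within a stage. The count was 7 without control intestine replicate 1, 9 without control intestine replicate 2 and 2 with the spike-in factor. Stage, driver, sequencing kit, depth and the mix of sexes cannot be told apart here either.

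**Figure D5:**
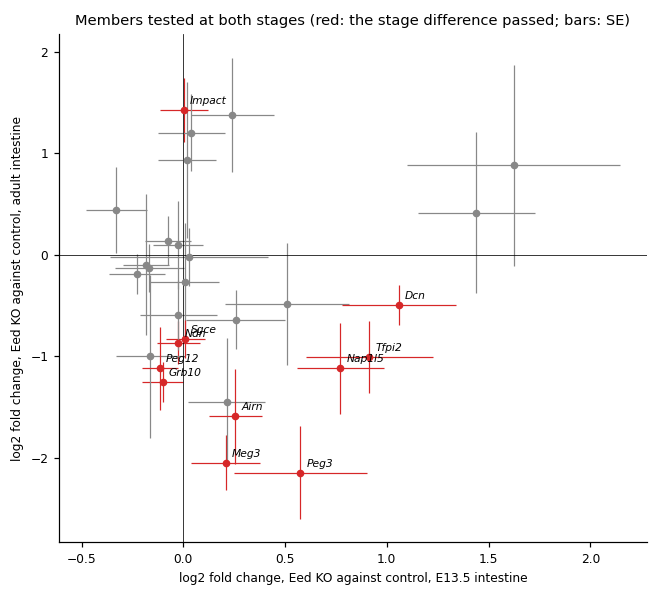
Log2 fold change of Eed KO against control in E13.5 intestine (horizontal) and in the adult intestine (vertical) for members tested at both stages, with standard errors as bars and members in red where the stage difference passed. Meg3 and Peg3 lie near or right of 0 in the embryo and below -2 in the adult. Rasgrf1 is not drawn because its embryonic controls had 0 counts.

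Lists of related genes were read beside the members. Among 33 other imprinted genes, 29 were tested in the embryo. In stomach 2 were called (Phactr2 higher, 0.79 ± 0.19, and Jade1 lower, -0.75 ± 0.13), or 6.9%, near the 7.91% of all genes called there. In intestine none was called by edgeR, beside 3.06% of all genes, with 3 at an unadjusted p under 0.05. In the adult contrast 6 of 25 tested were called, 4 higher and 2 lower, which is near the share of all genes called there (23.5%). They included the tetraspanins Cd81, at 192 and 317 CPM against 3218 and 3559 CPM, and Tspan32, at 4.90 and 5.89 CPM against 49.1 and 41.2 CPM. Cd81 was also at 248 and 249 CPM in embryonic control intestine. The part of cell types in these differences was not tested. The growth restraint gene Cdkn1c stood 8.22 ± 0.37 lower on the log2 scale in adult than in embryonic control intestine.

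Of 18 genes that set or keep imprints, 16 were tested in the embryo, with 1 called in stomach (the DNA demethylase Tet2, 1.19 ± 0.23) and none in intestine. The 6.25% called in stomach is near the 7.91% of all genes, and 3.06% of all genes were called in intestine. In the adult contrast 4 of 17 were called, again near the 23.5% of all genes, and Dnmt3l, Zfp57 and Zfp445 were the 3 that were lower. Of 14 genes of the insulin-like growth factor pathway, 3 were called in stomach after Eed loss, 2 higher and 1 lower, beside 7.91% of all genes. Igfbp5, a binding protein of Igf2, was at 1376 and 1545 CPM in control stomach and at 2481 and 3737 CPM in Eed KO stomach (log2 1.09 ± 0.21, adjusted p = 0.021). Igf1, which binds the same receptor as Igf2, was at 694 and 632 CPM against 977 and 943 CPM (log2 0.53 ± 0.11). In intestine 1 of 14 was called, beside 3.06% of all genes. It was Igfbp3, at 10.6 and 11.9 CPM against 34.7 and 33.6 CPM (log2 1.60 ± 0.27). In the adult Igfbp3 was lower in the libraries labelled Eed KO, at 154 and 175 CPM against 34.5 and 27.4 CPM (log2 -2.41 ± 0.22).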

How the data were processed

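RNA-seq and ATAC-seq of sorted mouse gut mesenchyme were analysed from deposited tables on GRCm38 (mm10). The authors made the gene counts from STAR alignments, with featureCounts without strand for the adult libraries, dropping reads that overlap several genes; the strand setting of the embryonic counts is not given in the sources used here. The deposited embryonic and adult tables hold raw counts, which also include spike-in transcripts. The authors called the broad peaks with MACS2 on pooled libraries, and the deposited lists give fold enrichment (a ratio) and −log10 q. Counts were tested in edgeR 4.0.16 (R 4.3.3) with TMM scaling, filterByExpr, 1 mean per group and quasi-likelihood F-tests, with Benjamini-Hochberg adjustment over all genes tested. The study used DESeq2 after spike-in correction, which is among the alternatives (DESeq2 1.42.0, 1 RUVg factor, spike-in scaling, no filter, fewer groups, a replicate block, leaving out each library). CPM follow TMM within each stage, and TPM use the gene lengths of the adult tables. Scripts were tested on simulated data. With 2 libraries a group, which the study describes as biological replicates, p-values rest on the spread between these few libraries. Per-library values are given for members called in a comparison and the 10 highest by TPM, and for other lists at most the 3 smallest adjusted p. The members, gene lists and tests were chosen with earlier results of these data known. Groups follow the sample labels. The promoter sequences come from a RefSeq table (GRCm38.p6), and those of Impact, Peg10, H19, Sgce, Dcn and Klf14 were not analysed here.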

Additional observations from a re-analysis of the deposited data

Results flagged for a closer look

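By the test of the interaction (adult minus embryonic log2 difference, edgeR, adjusted over 19388 genes), 15 members passed. The interaction sets the libraries labelled Eed KO against the controls, in the adult and in the E13.5 intestine. Among the 15, Zim1, Dio3 and Dlk1 did not pass the filter on low counts in the adult libraries alone. They entered through their embryonic counts, so their passing adds no support for a difference. Meg3 (-2.27 ± 0.30, adjusted p = 0.000929), Grb10 (-1.17 ± 0.18), Airn (-1.87 ± 0.34) and Sgce (-0.85 ± 0.16) were called in all 8 fits that left out 1 library. Peg3 (-2.75 ± 0.62) and Tfpi2 (-1.94 ± 0.44) were called in 7 of the 8, and Ndn (-0.86 ± 0.20), Nap1l5 (-1.90 ± 0.45) and Dcn (-1.57 ± 0.36) in 6 of the 8. Peg12 (-1.03 ± 0.32), Dlk1 (1.43 ± 0.39) and Impact (1.41 ± 0.36) were called in 2, 2 and 3 of the 8. Dlk1 had only 4 to 13 counts in each adult library. The fitted values of Rasgrf1 (-7.42 ± 1.41), Zim1 (-7.31 ± 1.92) and Dio3 (-7.28 ± 1.954) rest on a group at 0 counts, depend on the prior count and are not bounds. Rasgrf1 had 0 counts in embryonic control intestine, and Zim1 and Dio3 had 0 counts in the adult libraries labelled Eed KO. Rasgrf1, Zim1 and Dio3 were called in 8, 2 and 1 of the 8 fits. Eed itself was not called between the adult groups (adjusted p = 0.32), so these differences are between the labelled groups. The adult libraries labelled Eed KO also carried leukocyte markers at 1670 to 1740 TPM against 102 to 121 TPM in adult controls, and the part of this in the 15 differences was not tested.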

How the results depend on the processing

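No member that was called turned its direction under any alternative run, read relative to the shift of the median of all genes where that shift exceeded 0.1. Among the other alternatives 412 of 490 member values kept their call, and among the fits without 1 library 277 of 392 did. Without 1 library, the number of members called ran from 2 to 5 between control organs, 4 to 8 in stomach, 0 to 1 in intestine, 1 to 4 between Eed KO organs, 0 to 0 for the organ interaction, 3 to 9 in the adult, 33 to 35 between stages and 7 to 17 for the stage interaction. Spike-in scaling gave 1 between control organs, 41 in stomach, 39 in intestine and 1 between Eed KO organs, on shifts of the median of all genes of 0.30, 2.39, 1.85 and -0.24. One RUVg factor gave 2 in stomach, 0 in intestine, 1 for the organ interaction, 2 in the adult and 2 for the stage interaction. No filter gave 14 in stomach, 8 in intestine and 3 for the organ interaction. DESeq2 gave 5 in intestine and 3 for the organ interaction. Only the groups compared gave 0 in intestine and 2 between Eed KO organs. The fold rule, and leaving out members that share exon bases (chosen after the data were seen), each gave 4 between Eed KO organs. CPM by library total gave summed members of 15214 in adult controls and 7659.5 in the adult Eed KO libraries. The causes were not tested.

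With the replicate block the counts were 13 between control organs, 15 in stomach, 4 in intestine, 17 between Eed KO organs and 7 for the organ interaction. It changed no other count by over 1.5 times, with 7 in the adult, 33 between stages and 16 for the stage interaction. By the methods of the study, both organs were taken from each animal, but whether same-numbered libraries share embryos is not given. Eed KO libraries of the same number matched between the organs in Xist and Y-linked reads. The tests between organs above did not pair same-numbered libraries. Their departures from the group means were correlated at 0.433 between control organs, 0.854 between Eed KO organs, 0.249 to 0.384 across the other embryonic groups and -0.131 in the adult, over 10183 embryonic and 9068 adult genes. The depth leaves members under about 0.1 CPM in the embryo and 0.3 CPM in the adult unresolved.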

Other observations

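In the embryo, the summed level of the members differed between Eed KO replicates. Eed KO replicate 1 stood at 1.59% of TPM in intestine and 1.57% in stomach, and Eed KO replicate 2 at 1.76% and 1.79%. In the adult the members gave 0.738% and 0.725% in the libraries labelled Eed KO against 1.43% and 1.62% in the controls, and without Dcn 0.0297% and 0.0299% against 0.0606% and 0.0547%. Within the Peg10 cluster, 6 listed members were measured, and 4 were lower and 2 (Sgce and Tfpi2) higher in adult than in embryonic control intestine. Only 5 of the 6 passed the filter on low counts in the adult libraries alone.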
